A study of Mus musculus with 8 samples.

Results

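Blood vessels of the retina were represented by 10 genes, 8 of endothelial cells (Kdr, Flt1, Tek, Tie1, Pecam1, Cdh5, Cldn5, and Esam) and 2 of pericytes (Pdgfrb and Rgs5). They were taken by gene symbol, with earlier results of these data known, and all 10 were found among 21828 genes measured by RNA sequencing. The 8 libraries came from retinas of ICR mice: whole retina at E15 and at E18, and at P2, P5, and P8 the Cd73 positive cells (Cd73PC, precursors of rod photoreceptors and rods) and the Cd73 negative cells (Cd73NC, all other retinal cells) separated by flow cytometry. No mutation or treatment is named for the mice. For sorting, 20 retinas were pooled at P2, 12 at P5, and 20 at P8, dissociated with trypsin, and stained with propidium iodide. Both fractions of a stage came from the same retinas. Each condition had 1 library, so no value has a replicate error, and differences are described without a test. The embryonic retinas were not sorted, so a difference between E18 and P2 joins age and sorting, and these cannot be told apart.

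Endothelial cells line blood vessels, and pericytes are the contractile cells wrapped around capillaries. In the mouse, vessels enter the inner retina from the optic nerve head around birth and spread outward as a superficial plexus during the first postnatal week, then sprout toward deeper layers, guided by astrocytes and by vascular endothelial growth factor (VEGF). Kdr and Flt1 are receptors for VEGF, Tek and Tie1 are the receptors of the angiopoietin system, Pecam1, Cdh5, Cldn5, and Esam hold endothelial cells together, and pericytes are drawn to vessels through Pdgfrb, while Rgs5 damps G protein signalling in them.

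In the genome build of the files, NCBI37/mm9, no other annotated gene overlapped any of the 10. Kdr lies at chr5:76329299-76374453 on the minus strand with 30 exons in its longest annotated transcript, and Flt1 lies on the same strand at chr5:148373772-148537564, also with 30 exons. Tek (chr4:94405991-94541630, plus strand, 23 exons) and Tie1 (chr4:118143796-118162454, minus strand, 22 exons) share a chromosome. Cdh5 is at chr8:106625525-106668402 (plus strand, 12 exons), Pecam1 at chr11:106515532-106576595 (minus strand, 16 exons), and Esam at chr9:37335674-37345904 (plus strand, 7 exons). Cldn5, at chr16:18776940-18778355 on the plus strand, is a gene of 1 exon. Of the pericyte genes, Rgs5 lies at chr1:171585632-171623657 (plus strand, 5 exons), and the place of Pdgfrb is given with its values.

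Promoters are shown for 4 of the genes because they form the pairs whose levels are contrasted in the results. Kdr and Cldn5 were abundant from the embryo on, and Tek and Tie1 were scarce in every library and highest at P5. RefSeq promoter sequences (build GRCm38.p6, which is not the build of the files, 250 bases before to 50 after the start) were matched for 6 of the 10 genes. Capitals mark CGGAAG or AGGAAG on either strand, the core of sites for ETS factors, a family with members that act in endothelial cells.
Kdr (chr5:75978406-75978705, minus strand): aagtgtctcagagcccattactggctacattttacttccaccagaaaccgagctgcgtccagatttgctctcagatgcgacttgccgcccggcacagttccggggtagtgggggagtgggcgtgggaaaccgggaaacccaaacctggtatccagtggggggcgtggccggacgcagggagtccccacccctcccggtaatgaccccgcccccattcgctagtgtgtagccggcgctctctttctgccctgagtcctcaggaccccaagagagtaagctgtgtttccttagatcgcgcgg
Cldn5 (chr16:18776597-18776896, plus strand): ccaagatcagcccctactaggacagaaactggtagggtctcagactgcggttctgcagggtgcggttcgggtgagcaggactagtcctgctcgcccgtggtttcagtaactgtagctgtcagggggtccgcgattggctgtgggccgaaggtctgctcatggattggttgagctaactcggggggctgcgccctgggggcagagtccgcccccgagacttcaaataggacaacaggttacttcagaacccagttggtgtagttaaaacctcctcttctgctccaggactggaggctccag
Tek (chr4:94739039-94739338, plus strand): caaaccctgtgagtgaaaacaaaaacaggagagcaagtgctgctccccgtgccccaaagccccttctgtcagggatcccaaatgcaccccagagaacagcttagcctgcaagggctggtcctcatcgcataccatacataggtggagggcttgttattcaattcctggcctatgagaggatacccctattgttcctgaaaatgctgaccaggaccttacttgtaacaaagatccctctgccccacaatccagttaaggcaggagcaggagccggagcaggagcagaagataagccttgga
Tie1 (chr4:118489800-118490099, minus strand): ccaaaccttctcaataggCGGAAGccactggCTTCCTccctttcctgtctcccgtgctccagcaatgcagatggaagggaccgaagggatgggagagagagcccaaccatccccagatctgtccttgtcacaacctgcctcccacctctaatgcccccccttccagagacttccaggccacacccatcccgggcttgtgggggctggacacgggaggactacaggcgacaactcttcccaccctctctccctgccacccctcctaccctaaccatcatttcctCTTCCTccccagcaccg

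Of the 6 matched promoters, only that of Tie1 held CGGAAG, which 16.9% of 32851 promoters of the same length hold. AGGAAG was present in those of Tie1 and Flt1, and in 35.4% of all promoters. GGGCGG, the core bound by Sp1, was found for Kdr, Flt1, and Cldn5 (35.7% of all), TATAAA for Flt1 (13.6% of all), and ACAATG, a core bound by Sox factors, for none of the 6 (12.6% of all). Both strands were searched. CGGAAG and AGGAAG share the letters GGAAG, so 1 site matches only 1 of them, and GGGCGG can overlap CGGAAG by CGG. The pair Kdr and Cldn5 shared GGGCGG, while the promoters of Tek and Tie1 shared none of the motifs.

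Levels are given as FPKM, the deposited measure of expression, which is scaled to the length of the transcript and to the mapped fragments of the library. Kdr, the main signalling receptor for VEGF, had an FPKM of 38.4 at E15 and 87.9 at E18, and its FPKM in Cd73NC against Cd73PC was 139 against 29.7 at P2, 143 against 22.1 at P5, and 67.5 against 9.47 at P8. It was the most abundant of the 10 genes in all 8 libraries and ranked 363 of all 21828 genes in P5 Cd73NC. Its FPKM lay just above its own upper bound in the 3 Cd73NC libraries. Flt1, a VEGF receptor that mostly acts as a decoy, measured 0.451 FPKM at E15 and 0.327 at E18, then 0.481 (Cd73NC) and 0.182 (Cd73PC) at P2, 1.75 against 0.742 at P5, and 2.95 against 0.515 at P8. The VEGF receptors thus had different courses: Kdr was at its highest at P2 and P5 in Cd73NC, and Flt1 in P8 Cd73NC. The FPKM of Kdr was 290 times that of Flt1 in P2 Cd73NC and 18.4 times that of Flt1 in P8 Cd73PC.

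Tek, the receptor of angiopoietins, had an FPKM of 0.0154 at E15 and 0.0297 at E18, and its FPKM in Cd73NC against Cd73PC was 0.0470 against 0.0276 at P2, 0.207 against 0.560 at P5, and 0.0887 against 0.0703 at P8. It stayed below an FPKM of 1 in all 8 libraries. Tie1, its partner receptor with no well-established ligand of its own, measured 0.317 FPKM at E15 and 0.0720 at E18, then 0.0142 (Cd73NC) and 0.0892 (Cd73PC) at P2, 0.940 against 1.81 at P5, and 0.621 against 0.554 at P8. Both were at their highest in P5 Cd73PC, where Tie1 reached an FPKM of 1 for the only time. At P2 the half-width of the deposited bounds, which describe the uncertainty of an estimate within its library, was 83.7% of the FPKM of Tek in Cd73NC and 142% of that of Tie1, so these levels are poorly known.

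Among the junction and adhesion genes, Pecam1 had an FPKM of 0.428 at E15 and 0.217 at E18, and its FPKM in Cd73NC against Cd73PC was 0.223 against 0.148 at P2, 0.813 against 1.46 at P5, and 0.562 against 0.548 at P8. Cdh5, the cadherin of endothelial junctions, measured 0.381 FPKM at E15 and 0.385 at E18, then 0.166 (Cd73NC) and 0.0217 (Cd73PC) at P2, 1.13 against 2.41 at P5, and 0.661 against 0.469 at P8. Pecam1 reached an FPKM of 1 in 1 library and Cdh5 in 2. Like Tek and Tie1, both were low through P2 and highest in P5 Cd73PC, where the bounds of Cdh5 ran from 1.99 to 2.83. Cldn5, the claudin of tight junctions in the blood-brain and blood-retina barriers, had an FPKM of 6.22 at E15 and 15.9 at E18, and its FPKM in Cd73NC against Cd73PC was 29.1 against 5.17 at P2, 9.49 against 8.94 at P5, and 3.72 against 2.19 at P8. Esam, an adhesion molecule of endothelial tight junctions, measured 0.291 FPKM at E15 and 0.321 at E18, then 0.190 (Cd73NC) and 0.298 (Cd73PC) at P2, 1.64 against 2.80 at P5, and 13.0 against 2.18 at P8. Cldn5 was highest at P2 and Esam at P8, both in Cd73NC.

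Pdgfrb, the receptor through which pericytes are recruited, lies at chr18:61204804-61244721 (plus strand, 24 exons). It had an FPKM of 2.22 at E15 and 1.70 at E18, and its FPKM in Cd73NC against Cd73PC was 1.13 against 0.260 at P2, 2.98 against 1.21 at P5, and 3.69 against 0.591 at P8. Rgs5 measured 0.598 FPKM at E15 and 0.206 at E18, then 0.585 (Cd73NC) and 0.893 (Cd73PC) at P2, 10.8 against 7.60 at P5, and 14.7 against 2.11 at P8. Both were at their highest in P8 Cd73NC, but they did not keep a fixed ratio. The FPKM of Rgs5 was 0.121 times that of Pdgfrb in E18 whole retina and 6.30 times that of Pdgfrb in P5 Cd73PC.

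**Figure D1:**
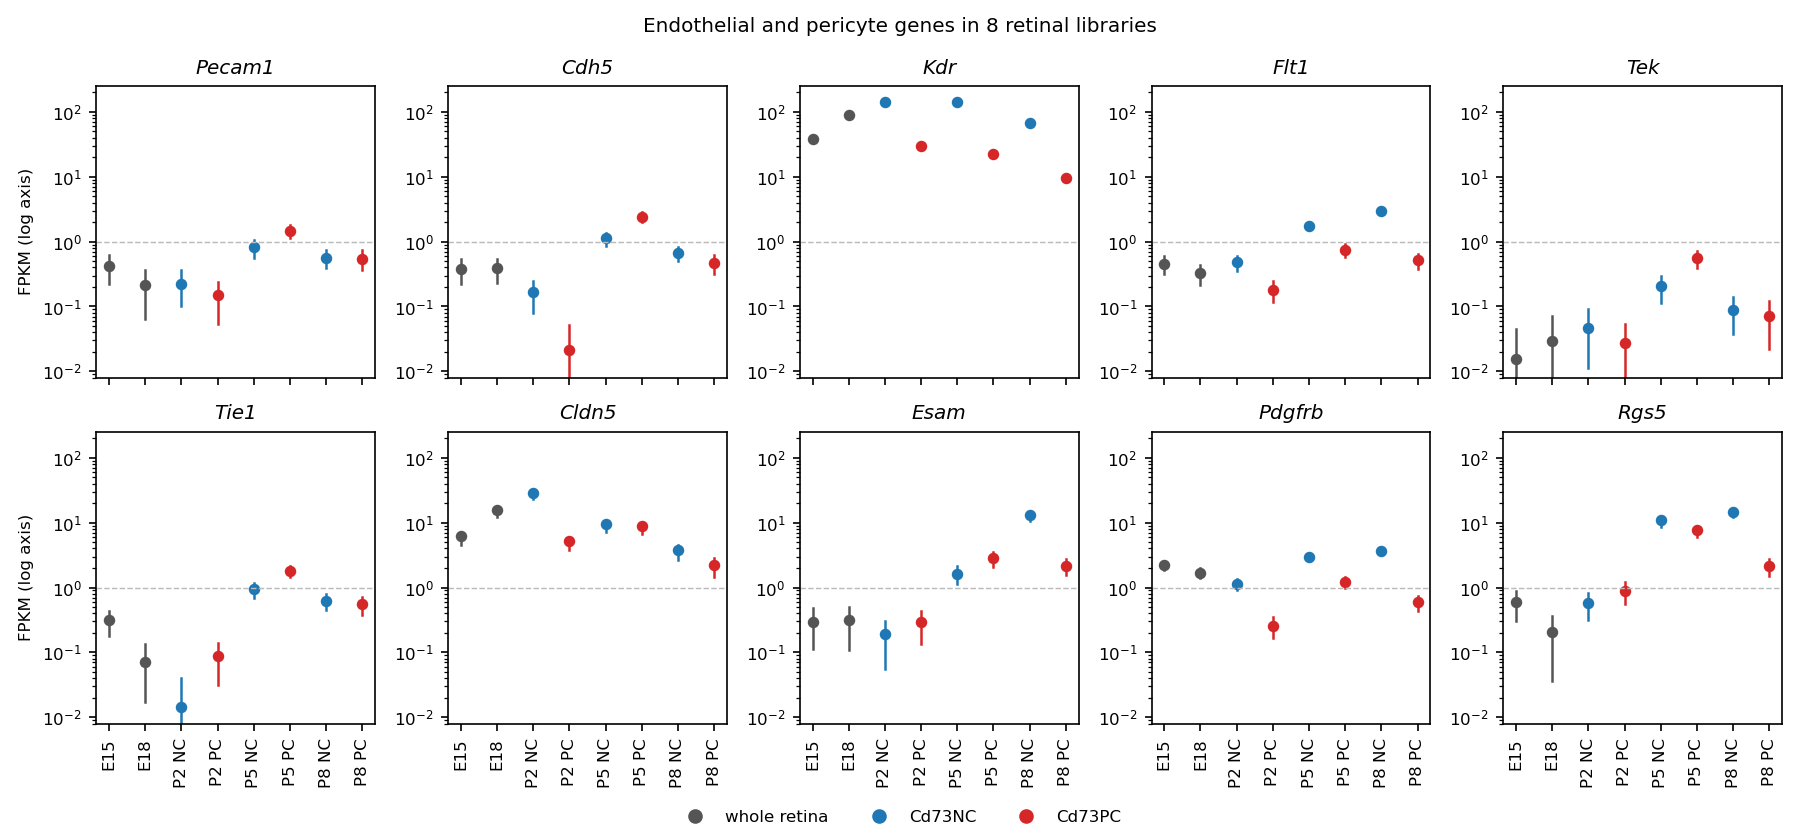
FPKM (log axis) of the 10 genes in the 8 libraries, with the deposited lower and upper bounds as vertical bars; bars that reach 0 run off the lower edge, and the dashed line is an FPKM of 1. Kdr lies between 9.47 and 143 and Cldn5 between 2.19 and 29.1 in all libraries, whereas Pecam1, Cdh5, Tek, and Tie1 lie below 0.5 through P2 and peak in P5 Cd73PC.

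Differences between libraries were counted as called when FPKM + 1 differed by 1.5-fold, the threshold of the study, and are given as log2 ratios of FPKM + 1 unless stated otherwise. Adding 1 understates the change of genes with a low FPKM, and therefore the deposited bounds were used as a second rule, by which a gene counts when the bounds of the compared libraries do not overlap. In these bulk libraries, fewer cells of a type and less RNA per cell cannot be told apart. The sort could be read from 10 rod genes, all of them higher in Cd73PC at each stage. Among them was Nt5e, the gene of Cd73 itself, whose direction the sort would set. At P2, P5, and P8 the 10 rod genes summed in Cd73NC to an FPKM of 169, 1352, and 1172. These sums were 0.042, 0.159, and 0.084 times those in Cd73PC, so the rod genes separated the fractions least at P5. All 10 rose from P2 to P5 in Cd73NC, beside 7.93% of all genes. Most of the vascular genes rose at this step too, and the part of this change in the result was not tested. The relative depth of the libraries ranged from 0.966 to 1.62 times that of E18. Other cells moved with the fractions and stages as well. The summed FPKM of 13 microglial genes was 11.9 (Cd73NC) and 66.0 (Cd73PC) at P2, 80.9 against 55.4 at P5, and 230 against 172 at P8, and none of them was at 0 in any library but 1 gene in P2 Cd73NC.

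At P2, Kdr and Cldn5 were higher in Cd73NC than in Cd73PC by 2.19 and 2.29 on the log2 scale of FPKM + 1. On that scale, 99.8% and 99.9% of the genes with an FPKM of at least 1 in either library had a lower ratio. Pdgfrb was also called, with a log2 ratio of 0.76. These are 3 of the 10 genes higher in Cd73NC, against 14.4% of all genes, and 0 of the 10 higher in Cd73PC, against 8.56% of all genes. By the bounds, 5 of the 10 were higher in Cd73NC, against 25.5% of all genes, with Cdh5 and Flt1 added, and 0 in Cd73PC, against 16.1%. The deposited FPKM of Cdh5 was 7.65 times as great in Cd73NC as in Cd73PC, but both levels were under 0.2. For Pecam1, Tek, Tie1, Esam, and Rgs5 the bounds of the P2 fractions overlapped.

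At P5 the 10 genes went both ways. Kdr (log2 ratio of FPKM + 1 of 2.64), Flt1 (0.66), and Pdgfrb (0.85) were higher in Cd73NC, and Cdh5 (-0.68) was higher in Cd73PC. Those are 3 genes against a background of 15.5% and 1 gene against a background of 7.02%. By the bounds, Kdr, Flt1, and Pdgfrb were again higher in Cd73NC (26.1% of all genes), while Pecam1, Cdh5, Tek, and Tie1 were higher in Cd73PC (12.2% of all genes). The deposited FPKM of these 4 genes in Cd73PC was 1.80 times that in Cd73NC for Pecam1, 2.14 times for Cdh5, 2.70 times for Tek, and 1.92 times for Tie1. Scaling altered this count: after quantile normalization, 1 of the 10 was called higher in Cd73NC and 5 in Cd73PC, and over all genes the calls went from 3389 higher in Cd73NC and 1532 higher in Cd73PC to 2368 and 2269. The direction of the 4 genes was the same as deposited, after upper-quartile scaling, and after quantile normalization. Cldn5, at 9.49 and 8.94, had bounds that overlapped at P5, and its direction turned under both scalings.

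At P8, 5 of the 10 genes were higher in Cd73NC, against 18.6% of all genes, and 0 in Cd73PC, against 7.54%. The 5 were Kdr with a log2 ratio of FPKM + 1 of 2.71, Rgs5 with 2.34, Esam with 2.14, Pdgfrb with 1.56, and Flt1 with 1.38. The bounds gave the same 5 genes (30.4% of all genes higher in Cd73NC, 12.9% higher in Cd73PC). On the deposited scale these genes were between 5.72 times (Flt1) and 7.12 times (Kdr) as high in Cd73NC, and this was the stage at which both pericyte genes were called. The deposited FPKM of Pecam1 was 1.02 times as great in Cd73NC as in Cd73PC, that of Cdh5 1.41, Tek 1.26, and Tie1 1.12 times, with bounds that overlapped. After upper-quartile scaling 3 of these 4 were greater in Cd73NC, and after quantile normalization none was. The median log2 ratio of FPKM + 1 over genes with an FPKM of at least 1 at P2, P5, and P8 was 0.14, 0.18, and 0.23 as deposited, and 0.04, -0.01, and -0.03 after quantile normalization. The ratios above are therefore to be read against these medians.

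**Figure D2:**
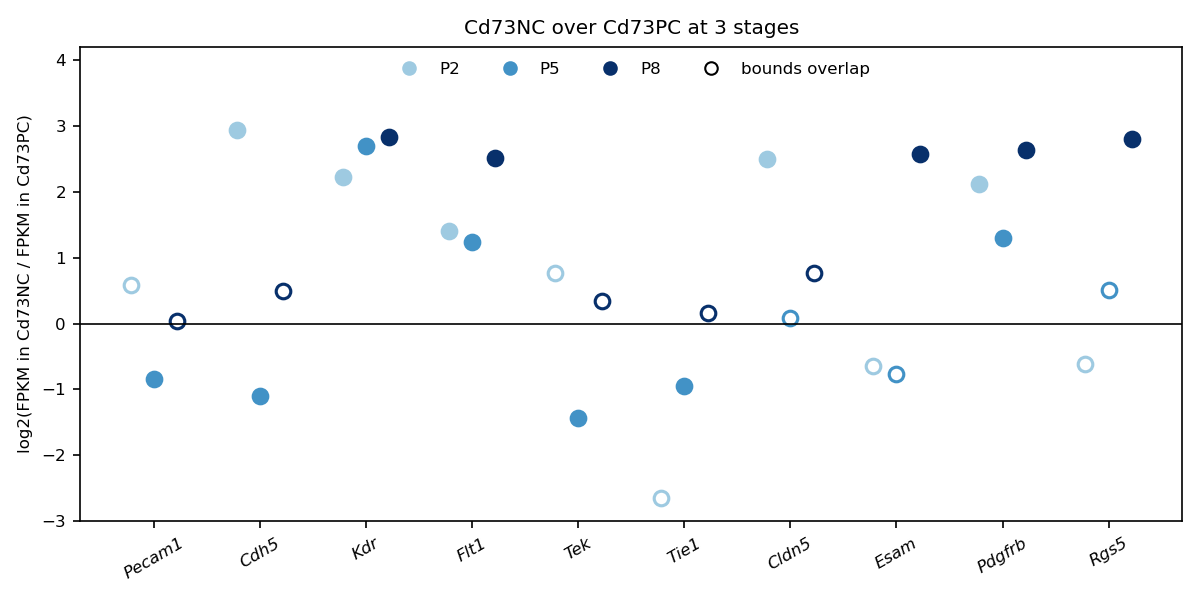
log2 ratio of the deposited FPKM in Cd73NC over Cd73PC for each of the 10 genes at P2, P5, and P8; filled points have deposited bounds that do not overlap between the fractions and open points have bounds that overlap. Kdr, Flt1, and Pdgfrb are above 0 with filled points at all 3 stages, while Pecam1, Cdh5, Tek, and Tie1 have filled points below 0 at P5.

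Before birth, Kdr and Cldn5 rose from E15 to E18 by 1.18 and 1.23 on the log2 scale of FPKM + 1. They were 2 of the 10 genes, against 4.61% of all genes, and 0 were higher at E15, against 2.09%. Tie1 was the one gene with bounds that did not overlap in the other direction, with an FPKM of 0.317 at E15 and 0.0720 at E18. From E18 whole retina to P2 Cd73NC the same pair was higher, Kdr by 0.66 and Cldn5 by 0.83 (2 genes, 3.2% of all genes), and 0 were lower (8.2% of all genes). Quantile normalization left 1 of these 2 calls. From E18 to P2 Cd73PC, Kdr, Cldn5, and Pdgfrb were lower, with log2 ratios of -1.53, -1.46, and -1.10 (3 genes, 18.3% of all genes), and Rgs5 was higher by 0.65 (1 gene, 8.78% of all genes). Both of these comparisons share the E18 library. The median log2 ratio of genes with an FPKM of at least 1 was -0.17 from E18 to P2 Cd73PC and -0.15 from P2 to P5 in Cd73PC, and within 0.1 of 0 at the other steps.

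Between P2 and P5 most of the genes rose in both fractions. In Cd73NC, 6 of the 10 rose, against 7.93% of all genes: Rgs5 by 2.90, Esam by 1.15, Tie1 by 0.94, Pdgfrb by 0.90, Flt1 by 0.89, and Cdh5 by 0.87 on the log2 scale of FPKM + 1. Cldn5 fell by 1.52 (1 gene, 9.52% of all genes). In Cd73PC, 8 of the 10 rose, against 3.36% of all genes, and 0 fell, against 8.57%. These were Rgs5 (2.18), Cdh5 (1.74), Esam (1.55), Tie1 (1.37), Pecam1 (1.10), Pdgfrb (0.81), Cldn5 (0.69), and Tek (0.60). Kdr was not called in either fraction, with an FPKM of 29.7 at P2 and 22.1 at P5 in Cd73PC, and of 139 and 143 in Cd73NC. On the deposited scale the rise in Cd73PC was 111-fold for Cdh5 and 20.3-fold for both Tek and Tie1, from levels whose bounds at P2 reached or came near 0.

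From P5 to P8, Kdr and Cldn5 fell in both fractions. In Cd73NC, Esam rose by 2.41 on the log2 scale of FPKM + 1 (1 gene, 8.47% of all genes), and Kdr and Cldn5 fell by 1.07 and 1.15 (2 genes, 7.78% of all genes). A smaller FPKM at P8 was found in Cd73NC for 6 of the 8 endothelial genes, and Flt1 and Esam were the exceptions. The same was found for 6703 of 12540 genes with an FPKM of at least 1 in either library. In Cd73PC, 6 of the 10 fell, against 4.78% of all genes, and 0 rose, against 3.31%. Cldn5 fell by 1.64, Rgs5 by 1.47, Cdh5 by 1.22, Kdr by 1.14, Tie1 by 0.85, and Pecam1 by 0.67. All 10 had a smaller FPKM at P8 in Cd73PC, as did 6621 of 11625 genes with an FPKM of at least 1 in either library. In Cd73NC, by contrast, Rgs5 had an FPKM of 10.8 at P5 and 14.7 at P8. The summed FPKM of hemoglobin and other erythroid genes in Cd73NC against Cd73PC was 133 against 40.2 at P2, 2009 against 1363 at P5, and 7007 against 2764 at P8, and they had a greater sum at each later stage in both fractions; their part in the result was not tested.

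The summed FPKM of the 8 endothelial genes came to 46.5 at E15 and 105 at E18, then to 170 (Cd73NC) and 35.6 (Cd73PC) at P2, 159 against 40.9 at P5, and 89.1 against 16.0 at P8. Kdr made up between 54.2% of this sum (P5 Cd73PC) and 89.9% (P5 Cd73NC), so it set most of the sum in every library. Pecam1, Cdh5, Tek, and Tie1 together summed to 1.14 at E15 and 0.704 at E18, to 0.450 and 0.286 at P2 in Cd73NC and Cd73PC, to 3.09 and 6.24 at P5, and to 1.93 and 1.64 at P8. For the pericyte genes the sum was 2.82 at E15 and 1.91 at E18, and in Cd73NC against Cd73PC it was 1.72 against 1.15 at P2, 13.8 against 8.81 at P5, and 18.4 against 2.70 at P8.

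Across the 8 libraries, the log2(FPKM + 1) values of Pecam1, Cdh5, Tek, and Tie1 ran together, with Pearson's r from 0.90 (Tek and Tie1) to 0.99 (Pecam1 and Tie1). The correlations are descriptions over libraries that share stages and sorts. Kdr had an r of -0.12 with Cdh5, -0.25 with Pecam1, and -0.29 with Tie1, and an r of 0.73 with Cldn5. Rgs5 had an r of 0.88 with Flt1 and 0.86 with Esam, both greater than its r of 0.54 with Pdgfrb. The endothelial genes thus had more than 1 course in these libraries, and Flt1 and Esam ran with a pericyte gene.

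**Figure D3:**
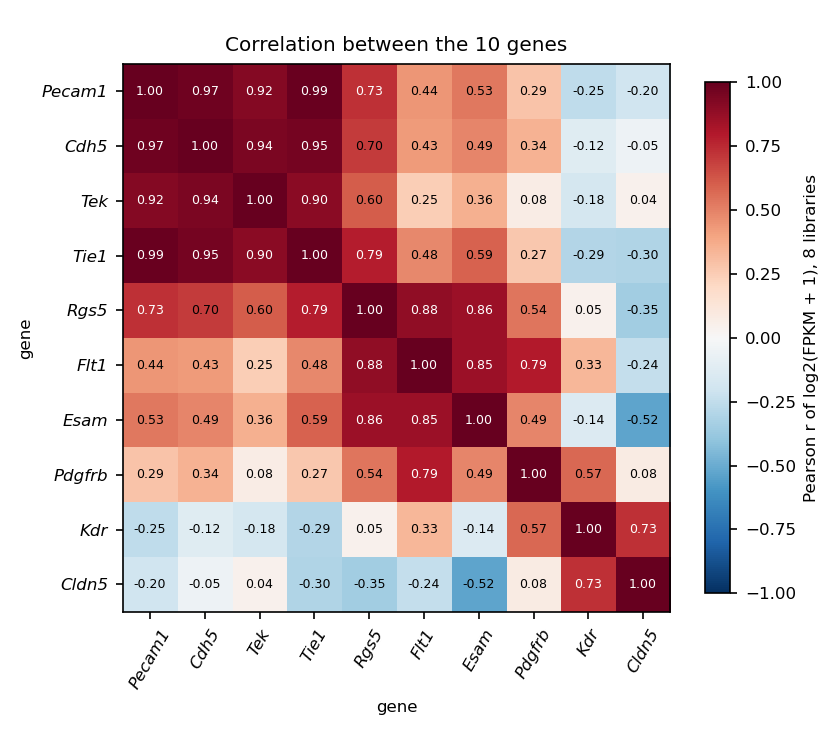
Pearson's r between the log2(FPKM + 1) values of the 10 genes over the 8 libraries, from -1 (blue) to 1 (red). Pecam1, Cdh5, Tek, and Tie1 form a block with r of at least 0.90, Rgs5, Flt1, and Esam a block with r of at least 0.85, and Kdr is closest to Cldn5 with an r of 0.73.

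Another 30 endothelial genes were compared with the mean course of Pecam1, Cdh5, Tek, and Tie1, a grouping made after their values were seen. Their median r with it was 0.87, beside -0.17 over 18343 other genes. An r of at least 0.8 was found for 16 of the 30, beside 0.818% of the other genes. The 16 included Cd93 (r of 0.99), the vascular transcription factors Erg, Sox7, Sox17, and Sox18, the sialomucin Emcn, and the apelin receptor Aplnr. These were scarce as well: Erg was listed at 0 in E15, E18, and both P2 libraries and reached 0.143 FPKM in Cd73NC against 0.265 in Cd73PC at P5. With Kdr, the median r of the 30 genes was -0.23, and 3 of them had an r of at least 0.8: the secreted factor Egfl7, the lipid transporter Mfsd2a, and the drug efflux pump Abcg2 (r of 0.95).

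At P5, 24 of the 30 other endothelial genes had a greater FPKM in Cd73PC than in Cd73NC, and 25 after quantile normalization, beside 29.7% and 42.9% of all genes, many of which were at 0 in both, and 36.6% and 50.01% of genes with an FPKM of at least 1 in any library. Of the 30, 3 were called higher in Cd73PC (Cd34, Cd93, and Nos3) and 2 in Cd73NC (Mfsd2a and Abcg2), beside 7.02% and 15.5% of all genes. After upper-quartile scaling 7 were called in Cd73PC and 2 in Cd73NC, and after quantile normalization 10 and 1. Their median log2 ratio of FPKM + 1 was -0.22, beside 0.17 for all genes with an FPKM of at least 1 in any library. At P2 a greater FPKM in Cd73PC was found for 20 of the 30, beside 33.4% of all genes and 39.9% of genes with an FPKM of at least 1 in any library. These levels were low: the list median was 0.022 for P2 Cd73NC, with 5 genes listed at 0, and 0.086 for P2 Cd73PC, with 3. By the 1.5-fold rule, 3 were called higher in P2 Cd73NC (Egfl7, Mfsd2a, and Abcg2) and 2 in P2 Cd73PC (Clec14a and Apln). The shares of all genes were 14.4% and 8.56%, so neither count exceeded its share. By the bounds, 3 were higher in P2 Cd73NC and 8 in P2 Cd73PC, beside 25.5% and 16.1% of all genes. The median log2 ratio of FPKM + 1 was -0.04, and no direction is given for P2. At P8 a greater FPKM in Cd73PC was found for 9 of the 30, and for 20 after quantile normalization, so no direction can be given for P8. The most abundant were Abcg2, with 12.5 FPKM in Cd73NC against 3.12 in Cd73PC at P5, Egfl7 (7.31 and 4.57), Mfsd2a (2.72 and 1.19), the sialomucin Cd34 (1.65 and 3.38), the peptide Apln (2.05 and 1.25), and the nitric oxide synthase Nos3 (0.764 and 2.65). From P2 to P5 in Cd73PC, 10 of the 30 rose and 0 fell, beside 3.36% and 8.57% of all genes. From P5 to P8 in Cd73PC, 6 fell and 0 rose, beside 4.78% and 3.31% of all genes. Genes of the pigment cell lineage, which lies outside the neural retina, were also summed. Their summed FPKM was 2.14 (Cd73NC) and 72.3 (Cd73PC) at P2, 38.6 against 56.9 at P5, and 39.4 against 77.5 at P8. At P2, 5 of these 8 genes were called higher in Cd73PC and 0 in Cd73NC, beside 8.56% and 14.4% of all genes. Rpe65, which defines the pigment epithelium, was listed at 0 in both P2 libraries. It had an FPKM of 0.351 (Cd73NC) and 0.253 (Cd73PC) at P5, and 2.595 against 4.262 at P8. The part of the genes of the pigment cell lineage in the result was not tested.

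**Figure D4:**
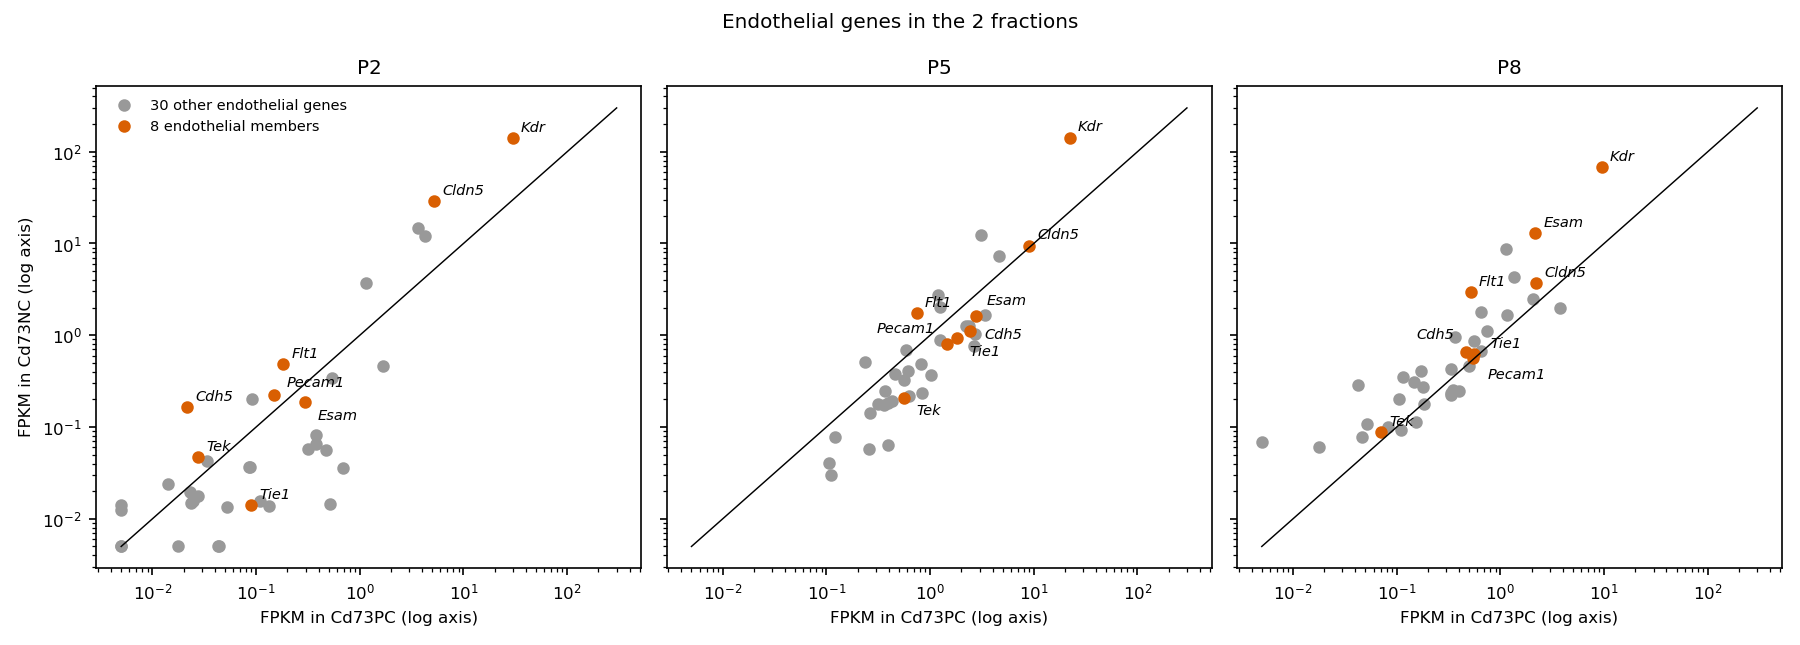
FPKM in Cd73NC against FPKM in Cd73PC at P2, P5, and P8 (log axes) for the 8 endothelial genes (orange, named) and the 30 other endothelial genes (grey), with the line of equal values; genes listed at 0 are drawn at the lower or left end of the line. At P5, 24 of the 30 grey points and 5 of the 8 orange points lie on the Cd73PC side, while Kdr lies far on the Cd73NC side.

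The pericyte genes were set beside 20 other genes of mural cells, the pericytes and smooth muscle cells of vessels. At P8, 11 of the 20 were higher in Cd73NC and 1 was higher in Cd73PC, beside 18.6% and 7.54% of all genes. Their median log2 ratio of FPKM + 1 was 0.77, beside 0.22 for genes with an FPKM of at least 1 in any library. After quantile normalization the median of the 20 was 0.50, with 8 and 1 called. At P2 and at P5, 4 were higher in Cd73NC (Notch3, Mcam, Ndufa4l2, and Heyl) and 1 was higher in Cd73PC. The shares of all genes were 14.4% and 8.56% at P2, and 15.5% and 7.02% at P5. Whether the RNA of Notch3, Mcam, Ndufa4l2, and Heyl came from mural cells was not tested. The median at P5 was 0.22 as deposited and -0.01 after quantile normalization. The 1 gene going the other way was Vtn, which encodes vitronectin, at each of the 3 stages. Its FPKM was 1.93 (Cd73NC) and 7.36 (Cd73PC) at P2, 6.80 against 25.8 at P5, and 8.36 against 51.5 at P8.

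The mean course of Pdgfrb and Rgs5 had an r of at least 0.8 with 7 of the 20, beside 1.92% of other genes. These were Abcc9 (r of 0.98) and Kcnj8, which form a potassium channel of pericytes, the proteoglycan Cspg4, Des, Cd248, Higd1b, and Tbx18. Kcnj8 had 0.696 FPKM in Cd73NC against 0.508 in Cd73PC at P5, and 2.17 against 0.131 at P8. The more abundant mural genes did not follow this course. Ndufa4l2 went from 350 FPKM in E18 whole retina to 37.6 in P8 Cd73NC, Mcam from 48.3 in P2 Cd73NC to 10.1 in P8 Cd73NC, Heyl from 24.6 to 2.62 in the same libraries, and Notch3 from 12.8 in E15 whole retina to 1.93 in P8 Cd73NC. Acta2, the actin of smooth muscle, stayed between 4.52 and 8.44 in all 8 libraries. The summed FPKM of 8 fibroblast genes, led by Fbln1, Col1a2, and Col1a1, was 10.7 (Cd73NC) and 3.79 (Cd73PC) at P2, 6.91 against 3.48 at P5, and 16.2 against 3.50 at P8, and Dcn and Lum stayed below 0.2 in all 8 libraries. An r of at least 0.8 with the pericyte course was reached by 3 of these 8 genes and by 3 of 9 erythroid genes; their part in the result was not tested.

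Kdr was set beside genes of retinal glia and progenitors after its values were seen, because it was abundant at E15 when Pecam1, Cdh5, Tek, and Tie1 were below an FPKM of 0.5. Of 10 genes of Müller glia, 5 had an r of at least 0.8 with Kdr over the 8 libraries (Slc1a3 with 0.96, Glul, Dkk3, Sox9, and Vim), and so did 2 of 10 genes of progenitors and the cell cycle (Hes5 and Sox2), beside 6.91% of all other genes. Among the most abundant genes of these lists were Dkk3, Apoe, and Vim, and Ccnd1 and Fgf15. The adhesion receptor Cd44 was the closest of 6550 candidate genes, with an r of 0.99 and an FPKM of 25.4 in P2 Cd73NC and 5.25 in P2 Cd73PC. All 10 progenitor genes were higher in Cd73NC at each stage, as were 7, 8, and 10 of the 10 glial genes at P2, P5, and P8. Of 5 genes of horizontal cells, led by Prox1, Onecut1, and Onecut2, 0 reached an r of 0.8 with Kdr, and Prox1 had the greatest, 0.37. These genes did not share a course. Prox1 had an FPKM of 10.4 at E15 and 166 in P8 Cd73NC, whereas Onecut1 had 14.15 and 0.081. Whether Kdr and Cldn5 RNA came from vessels or from other retinal cells was not tested, as the libraries do not separate them.

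Ligands of the receptors were measured in the same libraries. Of 16 angiogenic ligands, 4 were higher in Cd73NC and 4 in Cd73PC at P2, 8 against 3 at P5, and 8 against 1 at P8 (6 against 2 after quantile normalization). The shares over all genes were those given for the 10 genes, 14.4% against 8.56% at P2, 15.5% against 7.02% at P5, and 18.6% against 7.54% at P8, and hold for the next lists as well. Vegfa, the ligand of Kdr and Flt1, measured 35.6 FPKM at E15 and 54.3 at E18, then 22.9 (Cd73NC) and 25.8 (Cd73PC) at P2, 29.5 against 11.7 at P5, and 43.0 against 11.2 at P8. It was called higher in Cd73NC at P5 and P8 and not at P2, whereas Kdr was called at all 3 stages. Vegfb, a ligand of Flt1, lay between 19.4 and 40.9 in all 8 libraries, and Pgf, another, was higher in Cd73PC at P5 with 3.56 against 1.69. Tgfb2 reached 105 in P8 Cd73NC against 11.8 in Cd73PC. The Notch ligand Dll4, a gene of vessel tips, had an FPKM of 24.9 at E15 and 24.1 at E18. It had 27.2 in P2 Cd73NC and 2.32 in P8 Cd73NC, and whether its RNA came from vessels was not tested. Angpt1, a ligand of Tek, had an FPKM of 5.27 (Cd73NC) and 6.61 (Cd73PC) at P2, 5.35 against 0.811 at P5, and 0.686 against 0.364 at P8. Pdgfa and Jag1, with Pgf, were the ligands higher in Cd73PC at P5, and Jag1 was the 1 at P8.

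Of 18 other receptors and factors of angiogenesis, 6 were higher in Cd73NC and 2 in Cd73PC at P2 (Fzd4 and Epas1), 10 against 1 at P5, and 10 against 2 at P8 (6 against 3 after quantile normalization). The 1 at P5 was Acvrl1, a receptor of the TGF-beta family used by endothelial cells, and at P8 it was joined by Hif1a, the hypoxia factor that had the greatest mean FPKM of this list and rose to 253 in P8 Cd73PC against 138 in Cd73NC. The chemokine receptor Cxcr4 (102 in P2 Cd73NC and 19.2 in P2 Cd73PC) and Notch1 (70.5 and 37.4) were higher in Cd73NC, and each had an r of at least 0.8 with Kdr. At P5, Vhl, which marks Hif1a for destruction, had 32.8 FPKM in Cd73NC against 19.0 in Cd73PC, the Norrin co-receptor Lrp5 22.5 and 6.02, and Hey1 10.2 and 8.03. Of 15 barrier and junction genes, 4 were higher in Cd73NC and 2 in Cd73PC at P2 (Jam2 and F11r), 5 against 0 at P5, and 7 against 2 at P8 (Tjp1 and Jam2). Quantile normalization left 2 higher in Cd73NC at P5 and 4 at P8. The glucose transporter Slc2a1 had 343 FPKM in Cd73NC against 200.4 in Cd73PC at P2, and 142 against 167 at P8. Jam3 had 103 against 33.7 at P2 and 46.1 against 7.03 at P8, while Jam2 went the other way, with 30.6 against 65.0 at P2 and 26.9 against 73.7 at P8. Tjp1 and Cldn12 lay between 15.7 and 30.4 and between 14.0 and 23.2 in all 8 libraries. These 5 genes are also used by cells outside vessels, and their levels were above those of Pecam1, Cdh5, Tek, and Tie1 in every library.

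Astrocytes guide vessels, and their 4 genes, led by Pdgfra, Gfap, and Pax2, changed sides between P2 and P5. Their summed FPKM was 2.87 (Cd73NC) and 22.2 (Cd73PC) at P2, 29.4 against 7.46 at P5, and 21.4 against 7.48 at P8. At P2, 3 of the 4 were higher in Cd73PC, and at P5 and P8 all 4 were higher in Cd73NC, of which quantile normalization left 3 and 2. Among microglial genes, led by C1qa, C1qc, and C1qb, 12 of 13 were higher in Cd73PC at P2 and 0 at P5 and P8. The most abundant erythroid genes were Hba-a1, Hbb-b2, and Hba-a2. Those of the pigment cell lineage were Pmel, Dct, and Tyrp1, and those of rods included Sag and Nrl. At P5, 24 of the 30 other endothelial genes had a greater FPKM in Cd73PC. At that stage 12 of the 13 microglial genes (9 after quantile normalization) and all 4 astrocyte genes had a greater FPKM in Cd73NC. Of the 8 genes of the pigment cell lineage, 6 (7 after quantile normalization) had a greater FPKM in Cd73PC.

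The genes whose log2(FPKM + 1) course was most like the mean course of all 8 endothelial genes, among 6550 that reached an FPKM of 5 in a library and varied by at least 1 on the log2 scale, included Cdc42ep1 (r of 0.89), Necab3, Ndrg2, Spon2, Ncald, Mapk8ip1, Creg2, Clrn1, and Mgll (r of 0.81). Those most like the mean course of the pericyte genes were Ifitm3 (r of 0.97), Gabrr3, Pik3r2, Npdc1, and Man2b2 (r of 0.93). Spon2 had an FPKM of 16.4 in P5 Cd73NC and 2.36 in P5 Cd73PC, and Ifitm3 one of 5.32 in P8 Cd73NC and 1.35 in P8 Cd73PC. Of the 30 other endothelial genes, 0 had an r of at least 0.8 with the mean course of the 8, and most never reached the FPKM of 5 that candidates needed.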

How the data were processed

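RNA from 8 samples of ICR mouse retina was sequenced by the authors as single reads of 36 bases from unstranded poly(A) libraries, aligned to NCBI37/mm9 with TopHat2 2.0.8b, and quantified with Cufflinks 2.1.1; the submitters' processing notes also name CASAVA 1.8.2 and bcl2fastq 1.8.4. The deposited FPKM values are scaled to transcript length and mapped fragments, so read counts and absolute depth are unknown; the depth relative to E18 was read from the steps of rows under an FPKM of 0.3. FPKM lay outside its own bounds in 1428 to 2170 rows per library, among them Kdr in the Cd73NC libraries and Cldn5 in P2 Cd73NC. Failed rows (4 to 10 per library) were taken as missing, 787 of 23021 rows of small RNAs were dropped, and rows of 1 symbol were summed, which left 21828 genes.

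With 1 library per condition no test was run. Named are the 10 genes, the 10 and 5 genes most correlated with the endothelial and pericyte courses, up to 6 genes of each vascular list and 3 of each other list by mean FPKM, with those called against their list; genes named for r of at least 0.8 were added after their values were seen. A few genes that this rule takes are not reported here. The genes and lists were chosen with earlier results of these data known. Alternatives were pseudocounts of 0.1 or none, upper-quartile scaling, quantile normalization, 2-fold, bounds, and a filter of FPKM 1. Calculations used Python 3.11.15, numpy 2.4.6, and pandas 2.3.3, and figures used matplotlib 3.10.9. The calls were tried on simulated data, with abundant genes and changes well past 1.5-fold. That simulation does not cover genes with a low FPKM.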

Additional observations from a re-analysis of the deposited data

Results flagged for a closer look

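For 5 of the 10 genes the log2 ratio of the deposited FPKM in Cd73NC over Cd73PC was past 1.5-fold in opposite directions at different stages. The largest and smallest ratio over P2, P5, and P8 lay 1.44 apart for Pecam1, 4.04 for Cdh5, 2.20 for Tek, 3.35 for Esam, and 3.41 for Rgs5. Cdh5 went from 2.93 at P2 to -1.10 at P5, and both fractions had bounds that did not overlap at each of these stages. For Pecam1, Tek, Esam, and Rgs5 the P2 bounds overlapped. With 1 library per condition, the differences between stages were not tested.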

How the results depend on the processing

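A fit over the 3 pairs of fractions with stage as a block, which would take stages as replicates, was not run. As counts of the 10 genes higher in each library, 3 in Cd73NC at P2 became 5 with a pseudocount of 0.1, 7 with none, and 5 by the bounds, and 0 in Cd73PC became 1 and 3. At P5, 3 in Cd73NC became 1 after quantile normalization and 1 at 2-fold, and 1 in Cd73PC became 5, 5, 3, 5, 0, and 4 with a pseudocount of 0.1, none, upper-quartile scaling, quantile normalization, 2-fold, and the bounds. The count higher at E15 than E18 became 3, 3, and 1 with 0.1, none, and the bounds. From E18 to P2 Cd73NC, the count higher at P2 became 4 with no pseudocount, 1 after quantile normalization, and 0 at 2-fold, and the count lower became 2, 4, and 1 with 0.1, none, and the bounds. From E18 to P2 Cd73PC, the count higher became 0 at 2-fold and 0 with the filter of FPKM 1, and the count lower became 5 with either smaller pseudocount. The rise from P2 to P5 became 2 in Cd73NC and 5 in Cd73PC at 2-fold, with 1 lower in Cd73PC by the bounds. From P5 to P8 in Cd73NC, the count higher became 2, 2, and 3 with 0.1, none, and the bounds, and the count lower 4 and 5 with 0.1 and none. With 1 added to each value, the ratio of Kdr to Flt1 ran from 6.91 to 94.8, Tek to Tie1 from 0.556 to 1.03, and Rgs5 to Pdgfrb from 0.446 to 3.90. Of the 10 genes closest to the endothelial course, 2 remained with a pseudocount of 0.1 and 0 with the course of Pecam1, Cdh5, Tek, and Tie1, which was chosen after seeing the data; of the 5 closest to the pericyte course, 3 remained with 0.1 and 3 after upper-quartile scaling. No called ratio of a gene reversed. The cause was not tested.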
